A study of Mus musculus with 12 samples.

Results

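A pair of mouse tumour-derived cell lines was set against each other, constitutively active STAT3 line 2 and wild-type STAT3 line 3. They are the pair of lines of opposite genotype whose expression correlated best across genes. The pair accounts for 2 of the 6 lines and for 4 of the 12 bead arrays in the series, 2 arrays of constitutively active line 2 and 2 arrays of wild-type line 3. The remaining lines are constitutively active lines 1 and 3 and wild-type lines 1 and 2, again with 2 arrays apiece. All lines were untreated and grown in the same medium with foetal calf serum, and total RNA was hybridised to Illumina arrays. The labels name neither the tissue of the tumours nor how many clones a line holds. From what is known of the study, the cells came from mammary tumours of mice that carry an activated neu oncogene, with or without a knocked-in Stat3C allele. Each genotype is represented here by a single line, so a difference that follows STAT3 and a difference that is particular to either tumour line cannot be told apart within the pair. The labels call the arrays of a line replicates without saying whether they are separate cultures, so the spread behind each test is that between arrays and may be technical.

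STAT3 is a transcription factor that receptors of the IL-6 family and growth factor receptors activate through JAK kinases, after which it enters the nucleus and binds paired TTC and GAA half-sites. The Stat3C form carries cysteines that favour the active dimer. Among the genes it is known to raise is Socs3, which inhibits the same receptors, and in neu-driven mammary tumours STAT3 has been tied to Tns4 (Cten), a tensin found at focal adhesions and linked to cell migration.

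Signals are on a log2 scale after background correction and quantile normalization, and 7929 genes were tested. The arrays of the pair detected 12116 and 11961 of 46632 probes in constitutively active line 2, and 11478 and 12071 in wild-type line 3, within the range of the other arrays. Before normalization the brightest probe read 41529 and 44974 in constitutively active line 2, against 33579 and 31053 in wild-type line 3, and the median probe read 86.3 and 86.5 in constitutively active line 2, against 79.4 and 78.1 in wild-type line 3. The part of these signal ranges in the gene differences was not tested beyond the change of scaling given below. Of 6 epithelial markers, 5 (Krt7, Krt8, Krt18, Krt19 and Cdh1) were detected on both arrays of both lines, and Epcam was detected on none. Of the defining markers of other cell types, 0 of 6 leukocyte, 0 of 4 adipocyte, 1 of 7 fibroblast (Pdgfra) and 1 of 5 endothelial genes (Kdr) were detected in either line. Krt14, Krt17 and Acta2 were detected among 6 basal or myoepithelial markers, while Krt5, Trp63 and Myh11 were not.

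Mean normalized signals of constitutively active line 2 and wild-type line 3 correlated at 0.984 across the tested genes, the highest of all pairs of lines. The pair itself had been chosen by its correlation in the raw values. The next pair of opposite genotype, constitutively active line 1 with wild-type line 3, stood at 0.975, and constitutively active lines 1 and 2 also stood at 0.975. Arrays of 1 line correlated at 0.994 in constitutively active line 2 and 0.998 in wild-type line 3. The median gene differed by 0.17 on the log2 scale between the lines, against 0.12 and 0.09 between the arrays of either line. The pair was picked on the raw values of these same arrays, so the correlation is a description. The gene calls below state only which differences exceeded the spread between arrays.

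At an adjusted p below 0.05 (limma, Benjamini-Hochberg over all tested genes), 1466 of 7929 genes (18.5%) differed between the lines, 773 (9.75%) higher and 693 (8.74%) lower in constitutively active line 2. A difference of at least 1 on the log2 scale, which is 2-fold, was reached by 158 of them (1.99%), 95 (1.2%) higher and 63 (0.795%) lower. These are called large differences below. For all 1466 called genes the arrays of the lines did not overlap, while they overlapped for 2913 of the 7929 tested genes. Statements of no overlap below thus describe the values and add no support to a call. Of the 95 genes, 31 were detected on no array of wild-type line 3, and of the 63 genes 23 were detected on no array of constitutively active line 2. Of the 158, 23 stood on a gene list drawn up for this comparison (13 higher and 10 lower). Those lists hold 584 of the 7929 tested genes. With the second array of constitutively active line 2 left out, 143 genes were higher and 103 lower by this measure. Without the first array of constitutively active line 2, 403 genes were called higher and 315 lower. Without the first or the second array of wild-type line 3 the calls numbered 368 and 385 higher, and 256 and 262 lower. Scaling the arrays by their medians in place of quantile normalization shifted the median of all genes by 0.27, and 883 genes were then called higher and 120 lower, so 88.0% of the calls were higher. Each of the 158 large differences kept its direction and its call under that scaling.

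**Figure D1:**
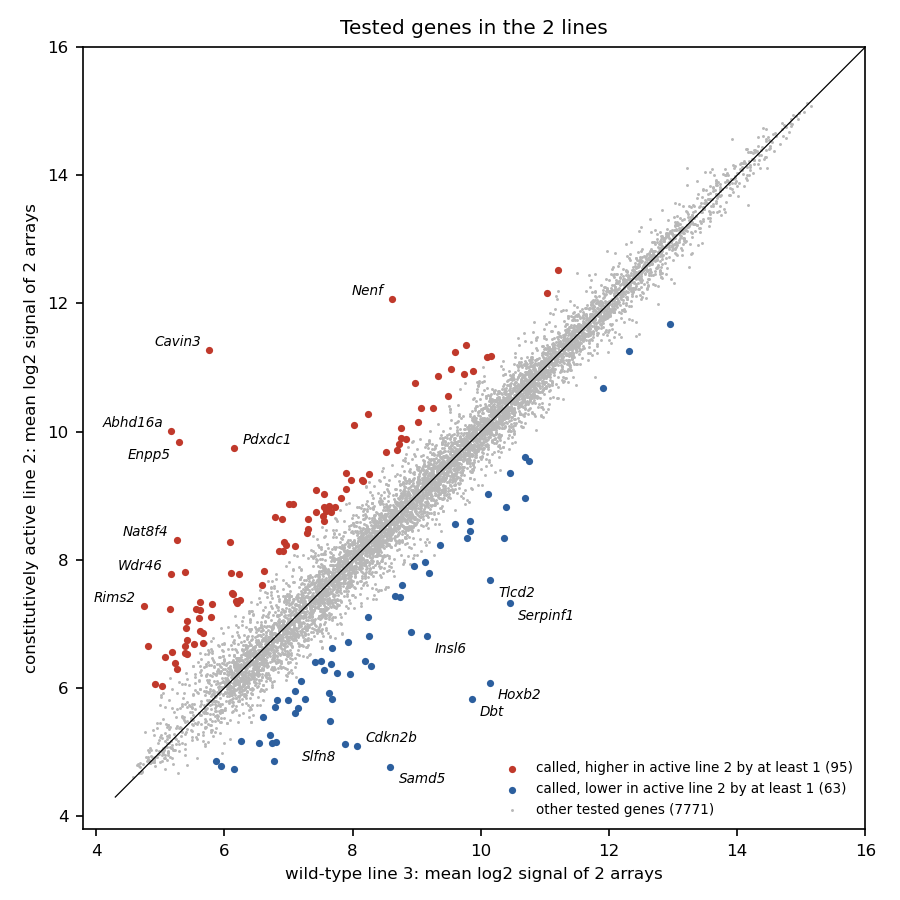
Mean log2 signal of each of the 7929 tested genes in constitutively active line 2 (vertical axis) and wild-type line 3 (horizontal axis), each over 2 arrays, with the 95 genes higher by at least 1 in red, the 63 lower genes in blue and the diagonal as a line. Most genes lie along the diagonal, and Cavin3, Abhd16a and Enpp5 stand farthest above it.

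Stat3 itself, the altered gene, read 12.20 and 12.34 on the arrays of constitutively active line 2, against 12.83 and 12.69 on those of wild-type line 3. All 4 arrays were bright, and both arrays of constitutively active line 2 lay below both of wild-type line 3. Stat3 was lower in constitutively active line 2 by -0.49 ± 0.11 (log2, SE; adjusted p = 0.0106), and the other kept Stat3 probe gave -0.84. The arrays measure the amount of transcript and do not report the amino acid changes that define the active form.

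Tns4 read 8.64 and 7.93 in constitutively active line 2, against 6.14 and 6.03 in wild-type line 3, where it was detected on neither array. The groups did not overlap. Against the detection limit in wild-type line 3, Tns4 was at least 4.21-fold higher (adjusted p = 1.47e-05). Its level in constitutively active line 2 was nonetheless well under the 12.45 of constitutively active line 3, and constitutively active line 1 stood at 6.75.

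On a list of known STAT3 targets, 7 of 22 tested genes were higher in constitutively active line 2 (31.8%, against 9.75% of all tested genes) and 1 was lower (4.55%, against 8.74%). Over the 22 genes the median difference was 0.22. The higher members were Twist1, Muc1, Socs3, Icam1, Bcl3, Osmr and Junb, and the lower one was Birc5, a survival and mitosis gene. Twist1, which encodes a transcription factor of epithelial-mesenchymal transition, read 8.83 and 8.81 in constitutively active line 2, against 7.64 and 7.46 in wild-type line 3. Socs3, the feedback inhibitor, read 9.41 and 9.26 in constitutively active line 2, against 8.18 and 8.32 in wild-type line 3. Both genes were higher on each array of constitutively active line 2 than on either array of wild-type line 3, by 1.27 ± 0.11 for Twist1 and 1.08 ± 0.11 for Socs3 (log2, SE). Muc1, a cell surface mucin, read 9.16 and 9.05 in constitutively active line 2, against 8.02 and 7.78 in wild-type line 3, and its 3 kept probes gave 0.88 to 1.39. Unlike Twist1, neither Socs3 nor Muc1 separated the genotypes across all lines. For Socs3 constitutively active line 3 was nearer to wild-type line 3 than to constitutively active line 2. For Muc1 both constitutively active lines 1 and 3 were. For Twist1 constitutively active line 1 was too, although it lay above every wild-type line. Icam1, an adhesion molecule for leukocytes, was close to background: it read 6.35 and 5.95 in constitutively active line 2, where 1 array detected it, against 5.24 and 5.07 in wild-type line 3, where neither did. Without 1 array of the pair the list gave 4 to 9 higher and 0 or 1 lower, with medians of 0.14 to 0.31.

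Promoter windows of the 2 STAT3 targets with a paired half-site among the higher genes, and of Twist1 for comparison, are shown because the data compare a STAT3 genotype. Each window runs from 250 bases before to 50 bases after the gene's start (RefSeq, GRCm38.p6), is written 5′ to 3′ on the gene's strand, and has any match to TTCNNNGAA in capitals. The motif reads the same on both strands.
Socs3, chr11:117969317-117969616, minus strand: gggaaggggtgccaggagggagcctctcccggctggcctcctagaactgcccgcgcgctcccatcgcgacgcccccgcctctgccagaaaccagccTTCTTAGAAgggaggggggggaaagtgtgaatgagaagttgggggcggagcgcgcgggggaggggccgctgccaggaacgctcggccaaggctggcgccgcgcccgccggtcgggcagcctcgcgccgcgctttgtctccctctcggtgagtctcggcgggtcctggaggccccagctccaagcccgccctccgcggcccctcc
Icam1, chr9:21015690-21015989, plus strand: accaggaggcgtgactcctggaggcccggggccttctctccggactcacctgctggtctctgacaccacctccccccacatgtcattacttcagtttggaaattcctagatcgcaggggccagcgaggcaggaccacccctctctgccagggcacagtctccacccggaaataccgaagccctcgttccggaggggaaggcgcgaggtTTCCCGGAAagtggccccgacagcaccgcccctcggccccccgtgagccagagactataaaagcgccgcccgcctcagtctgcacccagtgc
Twist1, chr12:33957421-33957720, plus strand: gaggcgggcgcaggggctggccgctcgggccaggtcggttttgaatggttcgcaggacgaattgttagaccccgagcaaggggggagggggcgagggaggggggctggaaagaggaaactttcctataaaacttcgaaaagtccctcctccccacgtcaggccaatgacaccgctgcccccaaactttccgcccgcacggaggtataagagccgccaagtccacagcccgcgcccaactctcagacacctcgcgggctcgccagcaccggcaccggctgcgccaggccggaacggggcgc
Socs3 and Icam1 each hold 1 match and the Twist1 window holds none, which concerns these letters in this window and not the factor. Over all tested genes with a window in the table, 543 of 6474 (8.39%) hold a match. The share was 50 of 605 (8.26%) among genes called higher in constitutively active line 2 and 31 of 569 (5.45%) among genes called lower. It was 5 of 68 (7.35%) among the large higher genes, namely Socs3, Fam83g, Nrde2, Prss23 and 4930523C07Rik, and 1 of 44 (2.27%) among the large lower genes, namely Rtn1. Among STAT3 targets, 4 of 18 (22.2%) held a match, and of these Socs3 and Icam1 were called higher while Bcl6 (a difference of 0.42, adjusted p = 0.0729) and Tnfrsf1a (-0.02, adjusted p = 0.889) were not called. Of all 32851 windows in the table, 2726 (8.3%) hold the motif.

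Of 24 tested genes for receptors of the IL-6 family, JAKs, STATs and SOCS proteins, 5 were higher in constitutively active line 2 (20.8%) and 2 lower (8.33%), with a median difference of 0.10. Osmr, the receptor subunit for oncostatin M, read 11.11 and 11.23 in constitutively active line 2, against 10.56 and 10.50 in wild-type line 3. Ifngr1, a receptor chain for interferon gamma, read 9.71 and 9.53 in constitutively active line 2, against 9.07 and 8.89 in wild-type line 3. Both receptors were 1.56-fold higher, with no overlap between the lines. Stat5a, another STAT gene, and Pias3, which encodes an inhibitor of activated STAT proteins, were each higher by 0.36 (log2). Stat3 and Ptpn6, a phosphatase gene, were the lower members. Without 1 array of the pair the list gave 3 to 6 higher and 0 to 2 lower.

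Among the large differences that were higher in constitutively active line 2, Cavin3 stood first. Cavin3, a coat protein of caveolae, read 11.15 and 11.38 in constitutively active line 2, against 5.78 and 5.74 in wild-type line 3. It was bright in one line and detected on neither array of the other, a difference of at least 33.3-fold (adjusted p = 3.77e-11). Abhd16a, a phosphatidylserine lipase, read 10.02 and 9.996 in constitutively active line 2, against 5.27 and 5.08 in wild-type line 3, at least 13.9-fold. Enpp5, of the ectonucleotide phosphodiesterase family, read 9.80 and 9.87 in constitutively active line 2, against 5.25 and 5.33 in wild-type line 3, at least 12.3-fold. Neither gene was detected in wild-type line 3.

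Nenf, which encodes the secreted protein neudesin, was detected in both lines, with 12.04 and 12.11 in constitutively active line 2, against 8.57 and 8.66 in wild-type line 3, a 10.96-fold difference. Pdxdc1, whose product has a pyridoxal-dependent decarboxylase domain, read 9.66 and 9.83 in constitutively active line 2, against 6.09 and 6.22 in wild-type line 3. That probe gave 3.59, while the 4 kept probes of Pdxdc1 ranged down to -0.69, so the gene as a whole has no single direction. Nat8f4, an N-acetyltransferase family gene, averaged 8.31 in constitutively active line 2 and 5.26 in wild-type line 3, at least 4.29-fold. Wdr46, a nucleolar WD-repeat gene, averaged 7.78 in constitutively active line 2 and 5.17 in wild-type line 3, at least 2.96-fold.

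Nppb, the precursor of B-type natriuretic peptide, read 8.27 and 7.36 in constitutively active line 2, against 5.50 and 5.29 in wild-type line 3, and Rims2, which acts in synaptic vesicle release, read 7.37 and 7.17 in constitutively active line 2, against 4.77 and 4.72 in wild-type line 3. Both were detected in constitutively active line 2 alone, at least 3.04-fold and 2.09-fold above the limit in wild-type line 3. Hspb8, a small heat shock protein gene, read 10.30 and 9.92 in constitutively active line 2, against 8.03 on both arrays of wild-type line 3. Gm1976, a predicted gene, read 9.01 and 8.72 in constitutively active line 2, against 6.91 and 7.10 in wild-type line 3. The lines did not overlap for any of these genes.

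The keratin and actin genes among the large higher differences were uneven between the arrays of constitutively active line 2. Krt17, a keratin of basal and stressed epithelium, read 10.99 and 9.57 in constitutively active line 2, against 8.19 and 8.28 in wild-type line 3. Acta1, skeletal muscle actin, read 9.32 and 8.01 in constitutively active line 2, against 6.76 and 6.84 in wild-type line 3. Both arrays of constitutively active line 2 exceeded both of wild-type line 3 for each gene, but the first array was more than 1 log2 unit above the second. Of the 158 large differences, 6 had arrays of constitutively active line 2 more than 1 log2 unit apart: Krt17, Acta1, Acta2, Col14a1, Lgals3bp and Slc7a3. None had arrays of wild-type line 3 so far apart.

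Among the large differences that were lower in constitutively active line 2, Hoxb2 stood first. Hoxb2, a homeobox transcription factor gene, read 6.21 and 5.95 in constitutively active line 2, where 1 array detected it, against 10.20 and 10.08 in wild-type line 3. Its neighbour in the cluster Hoxb4 averaged 5.61 in constitutively active line 2 and 7.10 in wild-type line 3, and Hoxb1, the third Hoxb gene tested, was not called (0.09, adjusted p = 0.819). Dbt, a subunit of the branched-chain keto acid dehydrogenase, read 5.80 and 5.85 in constitutively active line 2, against 9.79 and 9.93 in wild-type line 3. Dbt was detected on neither array of constitutively active line 2, so the level in wild-type line 3 was at least 13.3-fold higher (adjusted p = 2.41e-08).

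Samd5, a sterile alpha motif gene, read 4.77 on both arrays of constitutively active line 2, against 8.56 and 8.62 in wild-type line 3. Serpinf1, which encodes pigment epithelium-derived factor, a secreted inhibitor of angiogenesis, read 7.49 and 7.16 in constitutively active line 2, against 10.42 and 10.49 in wild-type line 3. Samd5 was undetected in constitutively active line 2, where wild-type line 3 was at least 5.50-fold higher, while Serpinf1 was detected in both lines and differed by 8.74-fold. Slfn8, a Schlafen family gene, averaged 5.12 in constitutively active line 2 and 7.88 in wild-type line 3, and was undetected in constitutively active line 2. Tlcd2, a TLC-domain membrane protein gene, read 7.60 and 7.76 in constitutively active line 2, against 10.09 and 10.19 in wild-type line 3, and its 3 kept probes gave -2.46 to -2.10.

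Ccnd2, a D-type cyclin, read 6.94 and 6.81 in constitutively active line 2, against 8.98 and 8.86 in wild-type line 3. Lgals1, a galectin, read 8.27 and 8.40 in constitutively active line 2, against 10.32 and 10.41 in wild-type line 3. Each was dimmer on both arrays of constitutively active line 2, with differences of -2.04 ± 0.09 and -2.03 ± 0.12 (log2, SE). Foxa1, a transcription factor of luminal mammary cells, averaged 4.86 in constitutively active line 2, where it was undetected, and 6.78 in wild-type line 3, at least 1.57-fold higher in wild-type line 3. St6galnac4, a sialyltransferase, averaged 5.48 in constitutively active line 2 and 7.65 in wild-type line 3. Insl6, a relaxin family peptide gene, averaged 6.81 in constitutively active line 2 and 9.16 in wild-type line 3. Gask1b, a Golgi-associated kinase gene, averaged 6.35 in constitutively active line 2 and 8.29 in wild-type line 3. None of these genes overlapped between the lines, which holds for every called gene.

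**Figure D2:**
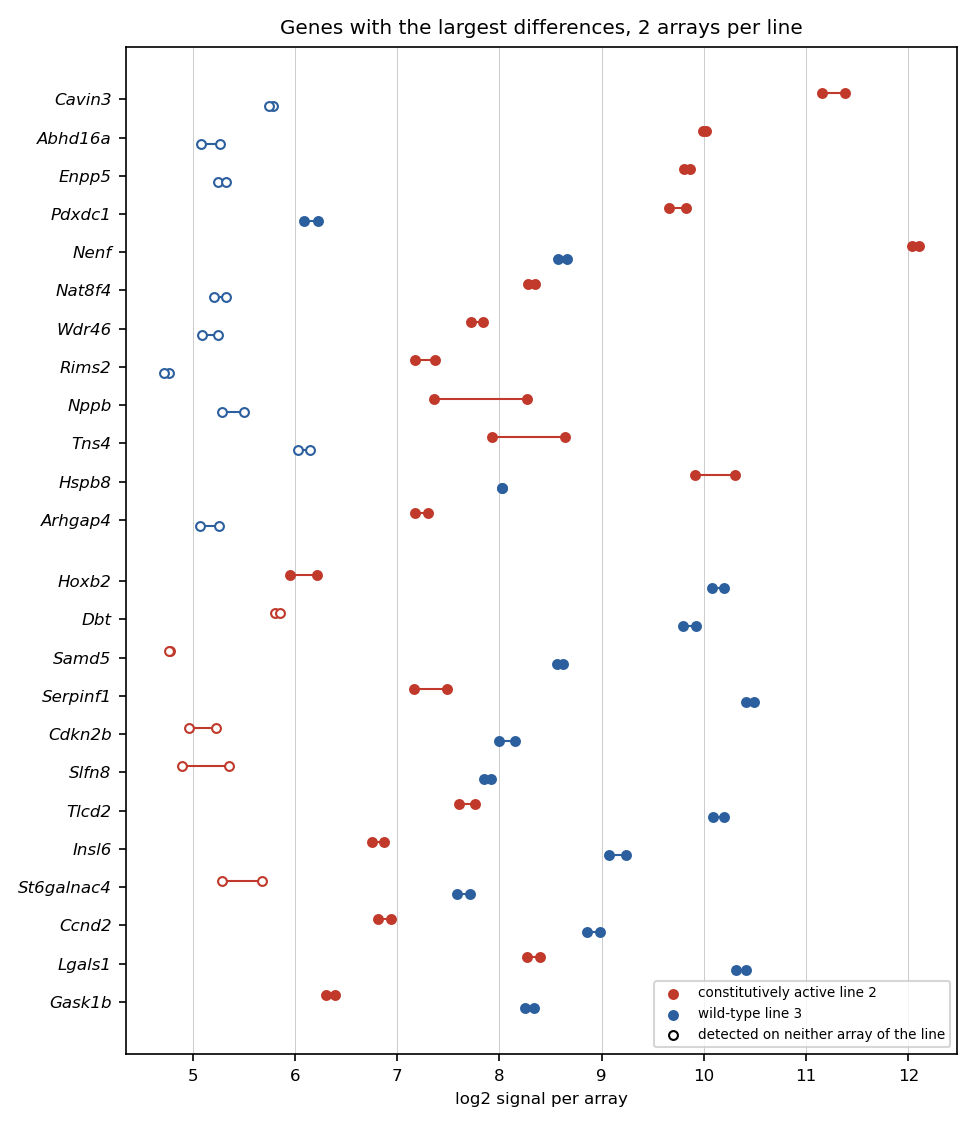
Log2 signal on each array for the 12 genes with the largest higher and the 12 with the largest lower differences, with constitutively active line 2 (red) above wild-type line 3 (blue) in each row and open circles for a gene detected on neither array of a line. The 2 arrays of a line lie close together except for Nppb and Tns4 in constitutively active line 2, and no gene's lines overlap.

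Where a gene had several kept probes, they did not always agree. Of the 158 large differences, 29 had more than 1 kept probe, 8 of these had a probe that was not called, and 5 had probes of opposite sign (Acta2, Cdkn2a, Pdgfd, Pdxdc1 and Usp14). Acta2, smooth muscle actin, read 8.98 and 7.59 in constitutively active line 2, against 6.996 and 6.87 in wild-type line 3 on its brightest probe, and its other probes went down to -0.04.

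The differences were not spread evenly over the genome. When tested genes were ordered along each chromosome, 1 stretch of chromosome 4 stood out, from Tgs1 to Bspry. It was found after the values were seen, as the only run of at least 20 genes whose running median over 31 genes exceeded 0.4 in size, and is given as a description. It holds 114 of the 481 tested genes of chromosome 4. The median difference was 0.76 (1.69-fold), with quartiles of 0.56 and 0.91, and 108 of the 114 were above 0. In the stretch 101 genes (88.6%) were called higher, against 8.6% of the 7815 tested genes outside it, and 1 was called lower, namely Gne, an enzyme of sialic acid synthesis. The rest of chromosome 4 had a median of 0.03, with 12.5% called higher, and all other chromosomes had a median of -0.01, with 8.4% called higher. Under the median scaling the stretch stood at 1.00, which is 0.73 above the shifted median of all genes. DNA copy number was not analysed here.

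The genes of the stretch are of many kinds, and 17 of its differences were large, all higher. They included Ctnnal1 (1.65), a catenin-like gene, Tmem64 (1.36), Decr1 (1.32), a mitochondrial enzyme of fatty acid oxidation, Abitram (1.32), Orc3 (1.28), a subunit of the origin recognition complex, and Dnajb5 (1.21), a heat shock co-chaperone. Tgfbr1, the type I receptor for TGF-beta, averaged 12.16 in constitutively active line 2 and 11.03 in wild-type line 3, and Tln1, which encodes talin at integrin adhesions, averaged 9.71 in constitutively active line 2 and 8.69 in wild-type line 3. Rad54b and Nsmaf, a DNA repair gene and an adaptor of the TNF receptor pathway, were higher by 1.12 and 1.07. Most genes of the stretch moved by less than 2-fold, and 12 were not called, among them Rps20, a bright ribosomal protein gene with a difference of 0.10 on the probe used, although its other kept probe gave 0.57 and was called.

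The level of the stretch did not separate the genotypes. Relative to the median of the 6 lines, the stretch genes had a median of 0.53 on both arrays of constitutively active line 2, against -0.21 and -0.17 in wild-type line 3. Constitutively active lines 1 and 3 stood at 0.04 and -0.04, and wild-type lines 1 and 2 at -0.11 and 0.02. Constitutively active line 2 was the highest of the 6 lines for 86 of the 114 genes and the lowest for 0, while wild-type line 3 was the lowest for 45. So the stretch set constitutively active line 2 apart from all other lines, and wild-type line 3 lay slightly below them. Without the stretch, 672 genes were called higher (8.6%) and 692 lower (8.85%). Of the genes on the lists described below, 9 lie in it: Car9, Ccne2, Ddx58, Melk, Rps20, Sec61b, Tln1, Tpm2 and Trp53inp1.

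**Figure D3:**
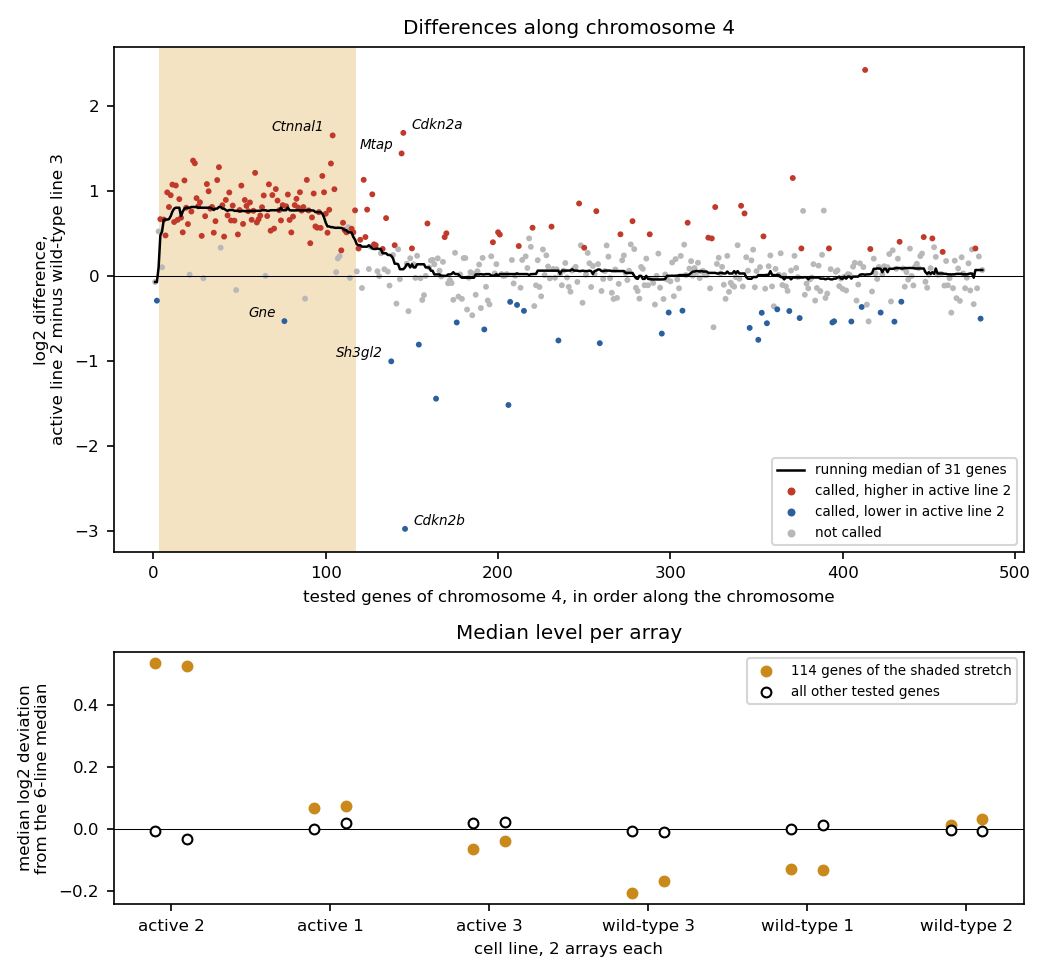
Top, log2 difference of constitutively active line 2 minus wild-type line 3 for the 481 tested genes of chromosome 4 in their order, with the running median of 31 genes as a black line and the 114-gene stretch shaded. Bottom, median deviation from the 6-line median on each array for the stretch genes (filled) and all other tested genes (open): the arrays of constitutively active line 2 lie at 0.53, those of all other lines at or below 0.08.

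Beyond the stretch, chromosome 4 holds the Mtap-Cdkn2 genes, which lie side by side and moved in opposite directions. Mtap, a methionine salvage enzyme often lost together with its neighbours in tumours, read 10.87 and 11.07 in constitutively active line 2, against 9.53 on both arrays of wild-type line 3. Cdkn2a, which encodes the p16 and ARF proteins, read 7.84 and 7.75 in constitutively active line 2, against 6.08 and 6.14 in wild-type line 3, although its other kept probe gave -0.49. Cdkn2b, which encodes the inhibitor p15 of D-type cyclin kinases, read 5.22 and 4.96 in constitutively active line 2, against 7.995 and 8.15 in wild-type line 3. Thus Mtap and the brighter Cdkn2a probe were higher, and Cdkn2b was undetected in constitutively active line 2 and at least 3.85-fold higher in wild-type line 3. Sh3gl2, an endophilin gene among the same 9 tested genes, was lower by -1.01 but was detected in neither line. The only other line without detectable Cdkn2b signal was constitutively active line 3, at 5.06, where Mtap (4.63) and Cdkn2a (5.01) were low too, whereas in constitutively active line 2 only Cdkn2b of these 3 genes was low.

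Within the list of G1 cell cycle and Mtap-Cdkn2 genes, 4 of 22 were higher (18.2%) and 3 lower (13.6%). Besides Mtap and Cdkn2a the higher ones were Ccne2, which lies in the chromosome 4 stretch, and E2f1. Besides Cdkn2b and Ccnd2 the lower one was Cdkn2c, the p18 inhibitor, with 10.30 and 10.39 in constitutively active line 2, against 10.99 and 10.96 in wild-type line 3.

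A second group of neighbours lies on chromosome 17 by the class I gene H2-K1. Zbtb22, a zinc finger gene, read 10.83 and 10.90 in constitutively active line 2, against 9.30 and 9.37 in wild-type line 3. Vps52, a vesicle tethering gene, averaged 7.35 in constitutively active line 2 and 5.63 in wild-type line 3. Psmb9, an immunoproteasome subunit, read 6.18 and 7.13 in constitutively active line 2, against 4.90 and 4.70 in wild-type line 3, and was detected in constitutively active line 2 alone, at least 1.36-fold above the limit. With Wdr46 and H2-K1 itself, 5 of 13 consecutive tested genes had large differences, 6 (these and H2-DMb1) were called higher and 0 lower. The ends of this window, Zbtb22 and Psmb9, were set after the values were seen and are large genes themselves, so its counts are a description. Over all tested genes 9.75% were called higher and 1.2% were higher by a large difference. Some of these calls are close to background: H2-DMb1 was detected on 0 arrays of either line, and H2-K1 on 1 array of constitutively active line 2 and 0 of wild-type line 3, too dim for a fold bound. The other kept probe of Vps52 gave 0.24 and was not called. The genes between them were not all higher: Tapbp (-0.03), Rgl2 (-0.05), Pfdn6 (-0.12) and Rps18 (-0.19) were not called. Wild-type line 1 shared the low levels, with 9.38 for Zbtb22, 5.42 for Wdr46 and 5.78 for Vps52. Of the wider list of MHC and antigen processing genes, 4 of 19 were higher (21.1%) and 1 was lower (5.26%). The higher ones were Psmb9, H2-K1, Cd74 and H2-D1, and the lower one was H2-M3. The first array of constitutively active line 2 lay below its second for 18 of the 19 genes. The median distance from the mean of wild-type line 3 was -0.13 on the first array and 0.17 on the second, so the list has no direction that both arrays share. Without the second array of constitutively active line 2, 3 of the 19 were higher and 3 lower. Cd74 was detected in neither line. H2-D1, a class I gene, was bright in both lines, with 13.84 and 14.17 in constitutively active line 2, against 13.61 and 13.66 in wild-type line 3.

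Over all gene lists, which hold 584 of the 7929 tested genes, 77 distinct members were higher and 71 lower. The lists were chosen with earlier results of these data known, and their counts are set beside the shares of all tested genes, 9.75% higher and 8.74% lower. Leaving out 1 of the 4 arrays lowered the number of calls, except of higher genes in 1 case: over all 7929 genes, 403 were higher and 315 lower without the first array of constitutively active line 2, 774 and 596 without its second, 368 and 256 without the first array of wild-type line 3, and 385 and 262 without its second. List counts without 1 array are to be read against those numbers.

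Genes of cholesterol and fatty acid synthesis were higher in 10 of 29 cases (34.5%) and lower in 1 (3.45%), with a median difference of 0.11. The higher members were Acss2, Hsd17b7, Stard4, Mvd, Fads2, Sc5d, Hmgcs1, Msmo1, Sqle and Fdps, most of them enzymes of the sterol pathway. Hmgcs1, an enzyme of the sterol pathway, read 13.63 and 13.50 in constitutively active line 2, against 13.003 and 13.06 in wild-type line 3. Acss2, which makes acetyl-CoA from acetate, read 9.01 and 9.31 in constitutively active line 2, against 8.32 and 8.11 in wild-type line 3. Differences were modest, at most 1.93-fold. Fasn, fatty acid synthase, was the lower one, with 8.85 and 9.08 in constitutively active line 2, against 9.51 and 9.54 in wild-type line 3. Without 1 array of the pair, 5 or 6 of the list were higher and 0 or 1 lower, with medians of 0.10 to 0.19.

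Basal keratins and myoepithelial genes moved both ways, with 5 of 14 higher (35.7%) and 3 lower (21.4%). Krt17, Acta2, Lgals7, Trp63 and Egfr were higher, and Mylk, Krt14 and Krt6a were lower. Krt14, the main basal keratin, read 11.75 and 11.23 in constitutively active line 2, against 12.38 and 12.45 in wild-type line 3, the reverse of Krt17. Lgals7, a galectin of stratified epithelium, read 11.02 and 10.89 in constitutively active line 2, against 9.77 and 9.99 in wild-type line 3. Trp63 was detected in neither line. Egfr, the epidermal growth factor receptor, was higher by 0.47 on 1 probe and 0.09 on another. Without 1 array of the pair, 2 to 4 of the list were higher and 2 or 3 lower.

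Smooth muscle contractile genes were higher in 4 of 18 cases (22.2%), namely Acta2, Actg2, Tpm2 and Myh10, and lower in 1 (5.56%), Mylk. Actg2, enteric smooth muscle actin, read 11.10 and 10.44 in constitutively active line 2, against 9.89 and 9.99 in wild-type line 3. As with Krt17, Acta1 and Acta2, the first array of constitutively active line 2 was the higher of its 2. The count of higher genes was 0 without the first array of wild-type line 3 and 1 without its second, and 3 and 5 without the first and second array of constitutively active line 2. Mylk, myosin light chain kinase, read 7.36 and 7.79 in constitutively active line 2, against 8.47 and 8.63 in wild-type line 3.

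Focal adhesion genes and tensins were higher in 6 of 33 cases (18.2%) and lower in 0, with a median difference of 0.09. Besides Tns4 and Tln1 they were Fermt1, Cd44, Itgb6 and Rnd3. Fermt1, the epithelial kindlin that activates integrins, read 11.65 and 11.28 in constitutively active line 2, against 10.54 and 10.63 in wild-type line 3. Cd44, a hyaluronan receptor, read 11.70 and 11.71 in constitutively active line 2, against 11.07 and 11.08 in wild-type line 3 on its brightest probe, while its 5 kept probes ranged from -0.08 to 0.63. Tns4 is on this list as the gene the study was about. Without 1 array of the pair, 4 to 7 of the list were higher and 0 lower.

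Luminal genes gave 2 higher (Krt19 and Prom1) and 1 lower (Foxa1) of 16. Krt19, a luminal keratin, read 9.49 and 9.003 in constitutively active line 2, against 8.51 and 8.31 in wild-type line 3. Junction genes gave 2 higher (Pkp1 and Nectin2) and 1 lower of 24, Cdh1, whose 2 kept probes disagreed (-0.56 and 0.53). Notch and Wnt pathway genes were higher in 4 of 20 cases (Wnt5b, Notch1, Tcf7l2 and Dll1) and lower in 0. Notch1, the receptor, read 8.69 and 8.71 in constitutively active line 2, against 8.04 and 8.29 in wild-type line 3. Without the first array of wild-type line 3, 0 Notch and Wnt genes were higher, 1 was without the first array of constitutively active line 2, and 2 were without the second array of wild-type line 3.

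Genes of mitosis and DNA replication were lower in 10 of 29 cases (34.5%) and higher in 1 (3.45%), with a median difference of -0.23. The lower ones were Bub1b, Tpx2, Spc25, Cdc20, Kif23, Plk1, Nusap1, Birc5, Cenpa and Rrm1, most of them spindle and checkpoint genes. Bub1b, a spindle checkpoint kinase, read 7.78 and 8.29 in constitutively active line 2, against 8.86 and 9.04 in wild-type line 3. Plk1, a mitotic kinase, read 11.56 and 11.91 in constitutively active line 2, against 12.33 and 12.38 in wild-type line 3. Melk, the higher member, lies in the chromosome 4 stretch. The count of lower genes was 2 without the first array of constitutively active line 2 (median -0.13) and 10 without its second, and 4 and 2 without the first and second array of wild-type line 3 (medians -0.30 and -0.22). Under the median scaling 1 of the 29 was lower and the list's median was 0.08, below the 0.27 of all genes.

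Histone genes, chosen by symbol after their values were seen, were lower in 12 of 33 cases and higher in 1 (H2ac8), with a median of -0.28. Over all tested genes 8.74% were lower and 9.75% higher. The histone counts were not recomputed without 1 array or under the median scaling. Among these histone genes, H2bc6 had the largest difference, with 5.76 and 5.63 in constitutively active line 2, against 7.11 and 7.20 in wild-type line 3.

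Oxidative phosphorylation genes were lower in 8 of 48 cases (16.7%) and higher in 0, with a median of -0.14. Ndufv2, a core subunit of complex I, read 9.05 and 9.14 in constitutively active line 2, against 9.78 and 9.95 in wild-type line 3. The count of lower genes was 2 without the first array of constitutively active line 2 and 8 without its second, and 4 and 1 without the first and second array of wild-type line 3, with medians of -0.16 to -0.12. Cytosolic ribosomal protein genes were lower in 6 of 45 cases (13.3%) and higher in 2 (4.44%), with a median of -0.12. Rpl10 read 12.35 and 12.29 in constitutively active line 2, against 13.03 and 13.01 in wild-type line 3, without overlap. Without 1 array of the pair, 1 to 5 ribosomal genes were lower and 1 or 2 higher. Under the median scaling 0 of the oxidative phosphorylation genes and 0 of the ribosomal genes were lower, and their medians of 0.15 and 0.11 also lay below that of all genes.

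Glutathione, redox and NRF2 target genes were lower in 7 of 31 cases (22.6%) and higher in 0, with a median of -0.11. Gstm2, a glutathione transferase, read 11.27 and 11.25 in constitutively active line 2, against 12.23 and 12.39 in wild-type line 3, and its 3 kept probes gave -1.36 to -0.99. Gpx2, an epithelial glutathione peroxidase, read 13.68 and 13.38 in constitutively active line 2, against 14.24 and 14.10 in wild-type line 3. Gstm1, Gpx8, Ftl1, Taldo1 and Prdx1 were the other lower members. The direction of the list rests on the second array of constitutively active line 2: without it, 5 genes were higher and 3 lower, with a median of -0.01. Without the first array of that line 7 were lower and 0 higher, with a median of -0.29, and without either array of wild-type line 3, 3 were lower and 0 higher. Under the median scaling 1 of the 31 was lower, 4 were higher and the median was 0.13.

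Secreted and matrix genes showed no common direction. Matrix proteins and proteases were higher in 3 of 35 cases (8.57%) and lower in 6 (17.1%), although without the second array of constitutively active line 2 they were higher in 8 and lower in 6. Plat, tissue plasminogen activator, read 8.10 and 7.70 in constitutively active line 2, against 6.83 and 7.09 in wild-type line 3. Tnc, tenascin C, read 10.31 and 10.53 in constitutively active line 2, against 9.72 and 9.56 in wild-type line 3. Mmp2, a gelatinase, was among the lower ones, with 9.39 and 9.82 in constitutively active line 2, against 10.39 and 10.20 in wild-type line 3. Among 11 mesenchymal and fibroblast markers, Twist1 was higher and Col6a1, Vim and Mmp2 were lower. Vim, vimentin, read 11.63 and 11.78 in constitutively active line 2, against 12.38 and 12.47 in wild-type line 3.

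Of 22 S100, galectin, Ly6 and IGF-binding genes, 3 were higher (Lgals7, Lgals3 and Igf1r) and 4 lower (Lgals1, Lgals3bp, Igfbp4 and Igfbp3). Lgals3bp, a secreted galectin ligand, read 7.81 and 10.12 in constitutively active line 2, against 10.80 and 10.60 in wild-type line 3. Its difference rests on the first array of constitutively active line 2, and the second lay within 1 log2 unit of wild-type line 3. Igfbp4, an IGF-binding protein, read 10.75 and 10.62 in constitutively active line 2, against 11.93 and 11.89 in wild-type line 3.

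Of 12 cytokine and chemokine genes, Cxcl1, Il34 and Cx3cl1 were higher and Tgfb2 was lower. Cxcl1, a neutrophil attractant, read 13.12 and 12.52 in constitutively active line 2, against 11.92 and 12.01 in wild-type line 3. Of 10 acute-phase and secreted defence genes, Cp and Ltf were higher and Ptx3 was lower, the last undetected in both lines. Of 11 milk and secreted mammary genes, Muc1 and Plin2 were higher and Csn3, kappa-casein, was lower. Ltf, lactotransferrin, was very bright, with 14.64 and 14.49 in constitutively active line 2, against 13.93 and 13.90 in wild-type line 3.

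Interferon-stimulated genes gave 1 higher (Ddx58, in the chromosome 4 stretch) and 1 lower (Ifi27) of 21, with a median of -0.21 and 4 of 21 above 0, but the arrays of constitutively active line 2 disagreed on this list. Its first array lay below its second for 19 of the 21 genes. The median distance from the mean of wild-type line 3 was -0.88 on the first array and 0.21 on the second. Irf7, a transcription factor of the interferon response, read 6.55 and 8.88 in constitutively active line 2, against 8.07 and 7.80 in wild-type line 3, and Bst2, a membrane protein that tethers virus particles, read 11.19 and 12.98 in constitutively active line 2, against 12.71 and 12.46 in wild-type line 3. These examples were chosen after their values were seen. Without the second array of constitutively active line 2, 15 of the 21 were called lower and 0 higher, and without the first, 1 lower and 5 higher, so the list has no direction that both arrays share.

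Glycolysis genes gave 1 higher (Hk2) and 1 lower (Pfkm) of 16, with a median of -0.02, and BCL2 family genes 2 higher (Bik and Bok) and 2 lower (Bid and Bad) of 15. Hk2, hexokinase 2, read 10.46 and 10.27 in constitutively active line 2, against 9.15 and 9.004 in wild-type line 3, a 2.45-fold difference. Hypoxia response genes gave 2 higher (Car9 and P4ha2) and 2 lower (Egln3 and Car12) of 12, with a median of 0.15, and p53 targets 3 higher (Trp53inp1, Plk2 and Tigar) and 2 lower (Ccng1 and Phlda3) of 16. ERBB receptors, ligands and feedback genes gave 3 higher (Epgn, Egfr and Grb7) and 2 lower (Egr1 and Dusp6) of 22, and 0 of either when the first array of constitutively active line 2 or either array of wild-type line 3 was left out. Genes of ER folding and stress gave 1 higher (Sec61b) and 3 lower (Sec61g, Hsp90b1 and Pdia4) of 20. Their median was -0.28, with 4 of 20 above 0, and Sec61b lies in the chromosome 4 stretch; 1 to 6 of the 20 were lower without 1 array of the pair. Of markers of other cell types, 1 of 4 tested endothelial genes (Flt1) and 0 of 3 tested leukocyte genes were called, 0 adipocyte genes were tested, and the 1 sex-linked transcript tested was not called.

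**Figure D4:**
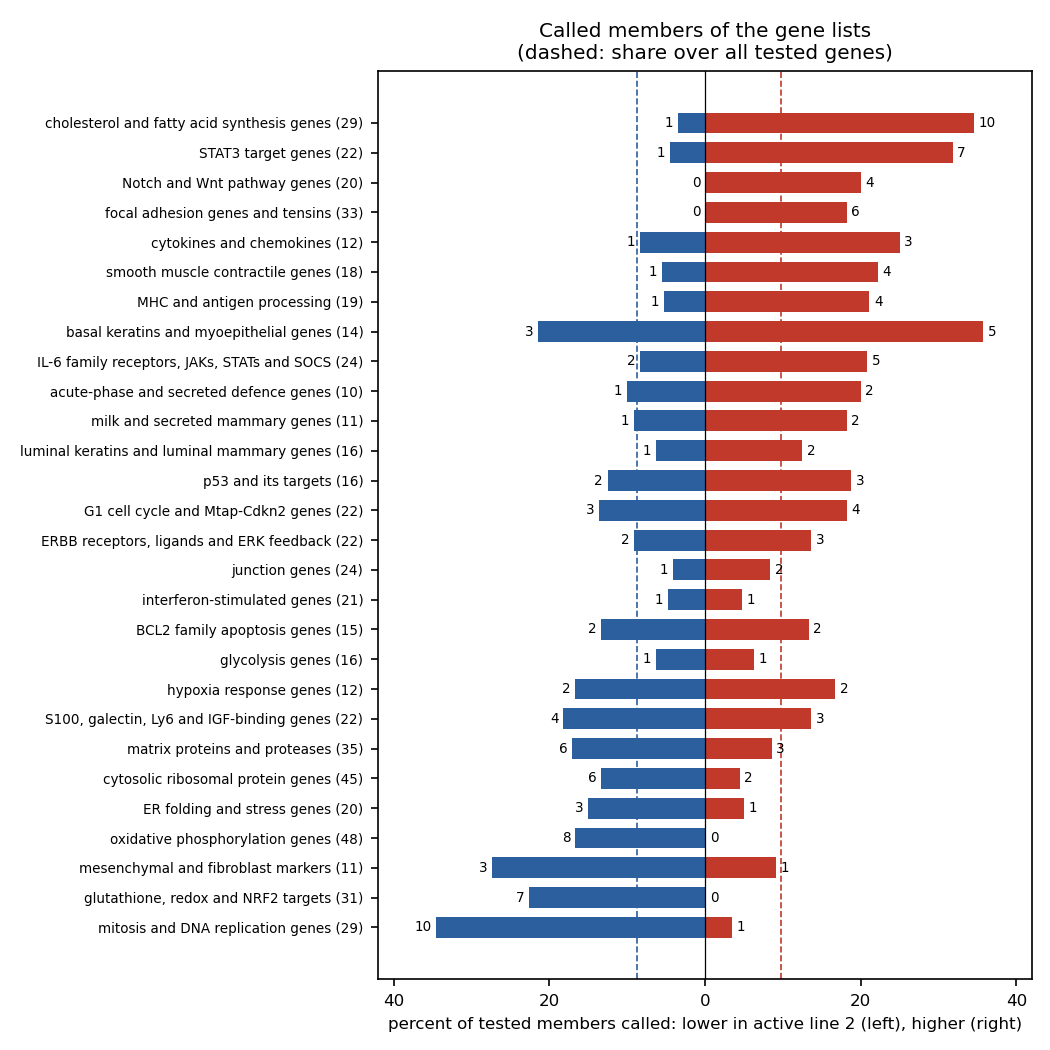
Percent of the tested members of each gene list (number tested in parentheses) called lower (left, blue) or higher (right, red) in constitutively active line 2, with the number of genes at each bar and the shares over all 7929 tested genes, 8.74% lower and 9.75% higher, as dashed lines. Cholesterol and fatty acid synthesis genes gave 10 higher and 1 lower of 29, and STAT3 targets 7 and 1 of 22; mitosis and DNA replication genes gave 1 higher and 10 lower of 29, and oxidative phosphorylation genes 0 and 8 of 48. Lists with fewer than 10 tested genes are not drawn.

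The other 4 lines, which the choice of the pair did not use as a contrast, gave a comparison of genotypes with 2 lines a side. By limma on line means, 0 of 7929 genes differed between constitutively active lines 1 and 3 and wild-type lines 1 and 2 at an adjusted p below 0.05, and 196 (2.47%) did at an unadjusted p below 0.05. The sign of the pair's difference recurred in the other 4 lines for 986 of the 1466 called genes (67.3%) and 101 of the 158 large ones (63.9%), against 60.3% of all tested genes. Without wild-type line 1 those shares were 59.7% and 52.5%, against 57.8% of all genes. Under the median scaling the share of all genes was 74.0%, above the 67.1% of the called genes. With the deposited log2 values the shares were 67.0% of the called and 61.4% of the large genes, against 60.4% of all genes. With all 4 other lines, the shares of the called and large genes stood above the background with quantile normalization and with the deposited values. Both shares stood below it under the median scaling. For the large genes the order also changed with the lines used. Their share was 57.6% against 60.1% of all genes without constitutively active line 3, and 57.0% against 56.9% without constitutively active line 1. Without wild-type line 2 it was 68.4% against 59.9%.

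In 985 of all 7929 genes (12.4%), all 3 constitutively active lines lay above all 3 wild-type lines, or all below, in the pair's direction. Of the 1466 called genes, 289 (19.7%) did so, a larger share (15.9% of those called higher and 24% of those called lower). The called genes were picked on the pair, which is part of this count, so these shares are descriptions. Of the 158 large genes, 13 (8.23%) did so, a smaller share than of all genes. The 11 higher ones were Abhd16a, Nat8f4, Tns4, Arhgap4, Orc3, Twist1, Cnppd1, Rad54b, Gdpd3, Nsmaf and Txnrd3 (the last named only to complete the count), and the 2 lower ones were Col2a1 and Celf2. In most of these, the separation between the genotypes was narrow or uneven. Gdpd3, a lysophospholipase D gene, averaged 9.24 in constitutively active line 2, 9.35 in line 1 and 8.91 in line 3, against 8.14 in wild-type line 3, 8.42 in line 1 and 7.89 in line 2. Abhd16a averaged 9.94 and 9.996 in constitutively active lines 1 and 3, against 5.09 in wild-type line 1 but 9.80 in wild-type line 2. Twist1 averaged 7.77 and 9.47 in constitutively active lines 1 and 3, against 7.32 and 7.46 in wild-type lines 1 and 2. Celf2, an RNA-binding protein gene, averaged 8.55 in constitutively active line 2 and 9.59 in wild-type line 3, although its other probe gave -0.35. Col2a1 was detected in neither line of the pair.

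The genes with the largest differences mostly did not follow genotype across the 6 lines. Cavin3 was as high in constitutively active line 3 (11.32) as in line 2 (11.27), but it was 5.26 in constitutively active line 1, and wild-type line 2 stood at 7.94. Hoxb2 was low in constitutively active line 2 and in wild-type line 1 (5.54) and between 10.14 and 10.91 in the other 4 lines. Dbt was low in constitutively active lines 2 and 3 (5.83 and 5.90) and in wild-type line 1 (6.12), and stood at 9.64 in constitutively active line 1, 9.86 in wild-type line 3 and 9.95 in wild-type line 2. Abhd16a, Nenf, Wdr46, Vps52 and Zbtb22 shared another pattern, low in wild-type lines 1 and 3 and high in the other 4. For Krt17, Acta1 and Mtap, only wild-type line 2 among the other 4 lines was nearer to constitutively active line 2 than to wild-type line 3.

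**Figure D5:**
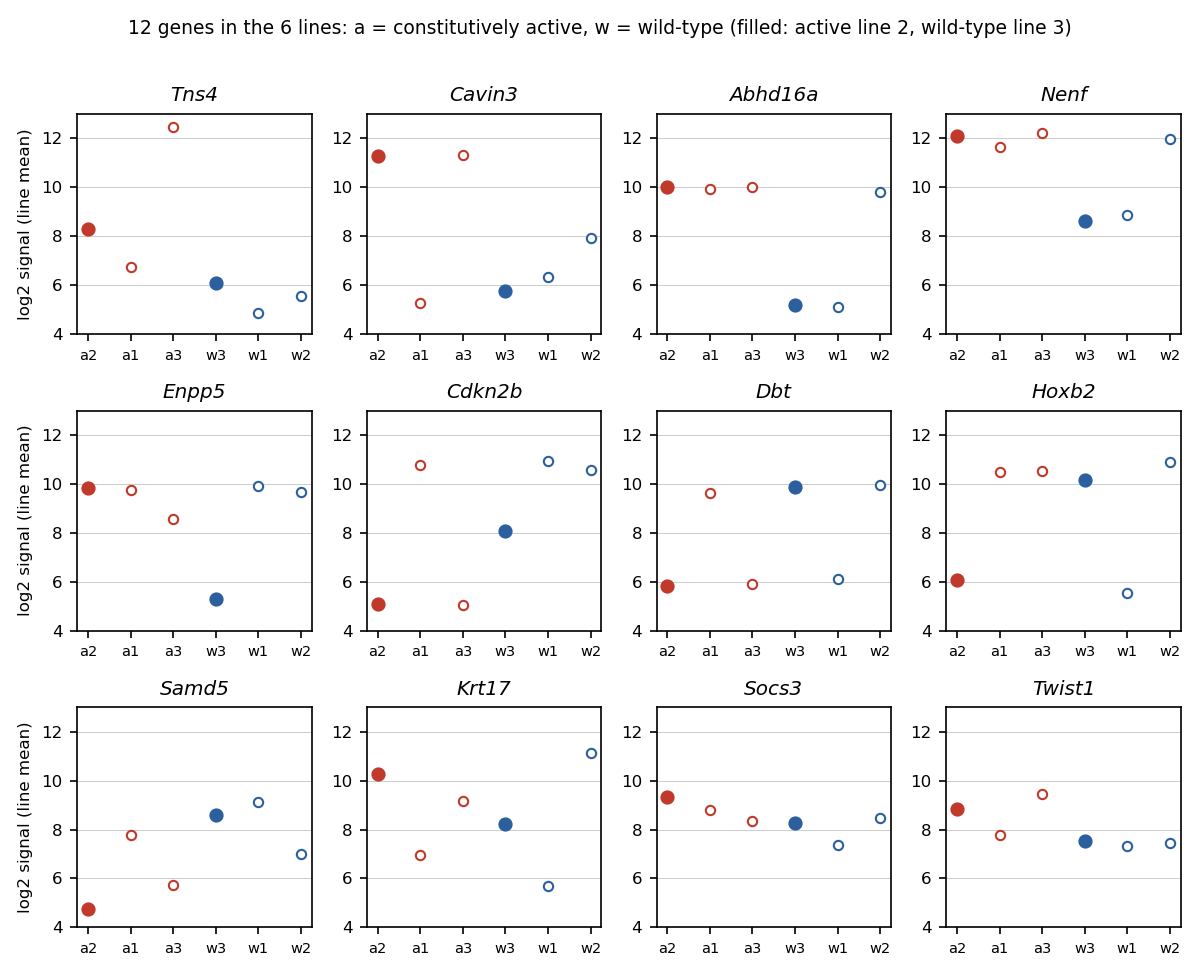
Line means of log2 signal for 12 genes in constitutively active lines 2, 1 and 3 (a, red) and wild-type lines 3, 1 and 2 (w, blue), each over 2 arrays, with constitutively active line 2 and wild-type line 3 filled. Tns4 and Twist1 are higher in each constitutively active line than in each wild-type line, while Cavin3, Enpp5, Cdkn2b, Dbt, Hoxb2 and Krt17 follow individual lines.

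In 40 of the 158 large differences (25.3%, against 1.48% of all genes) constitutively active line 2 lay outside the range of the other 5 lines by at least 0.5. In 21 (13.3%, against 0.782%) wild-type line 3 did so. Since the large genes were picked on the difference between these 2 lines, those shares are descriptions. The 10 genes in which constitutively active line 2 lay farthest out were Gask1b, Tlcd2, Gng2 and Ccnd2 on the low side, and Galnt15, Slc6a15, Sftpd, Cidea, Pdgfd and Gm1976 on the high side. Sftpd, surfactant protein D, a secreted collectin, read 12.62 and 12.42 in constitutively active line 2, against 11.19 and 11.23 in wild-type line 3, and averaged 10.12 to 10.95 in the other lines. Cidea, a lipid droplet protein gene, read 9.40 and 9.10 in constitutively active line 2, against 8.07 and 7.88 in wild-type line 3, and both lines were above the other 4, which averaged 5.58 to 6.74. Galnt15, a glycosyltransferase gene, read 7.30 and 7.16 in constitutively active line 2, against 5.57 and 5.55 in wild-type line 3, where it was undetected as in the other lines.

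The 10 genes in which wild-type line 3 lay farthest out were Enpp5, Pdxdc1, Nat8f4 and Rims2 on the low side and Abcc1, Rtn1, Foxa3, Slfn8, Cldn10 and Msln on the high side. Enpp5 averaged 8.55 to 9.91 in the other 5 lines. Abcc1, a drug efflux transporter, read 6.01 and 5.83 in constitutively active line 2, against 7.60 and 7.68 in wild-type line 3, and was at most 6.24 in the other lines. Cldn10, a claudin, read 9.60 and 9.47 in constitutively active line 2, against 10.74 and 10.76 in wild-type line 3, and was 4.93 in constitutively active line 3. Msln, mesothelin, read 6.51 and 6.75 in constitutively active line 2, against 7.63 and 7.72 in wild-type line 3. Rtn1, a reticulon, and Foxa3, a forkhead transcription factor gene, were lower in constitutively active line 2 by -1.39 and -1.06.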

How the data were processed

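Total RNA of 6 mouse tumour-derived lines (3 with constitutively active and 3 with wild-type STAT3, 2 arrays each) was hybridised to Illumina bead arrays. The deposited raw table gives, per the file headers, the bead intensity (linear) and a detection fraction for 46632 probes. The deposited series matrix holds the authors' values on a log2 scale. BeadStudio 3.1.7 and lumi are named, per the submitters' processing notes, and the sources used here do not give how the authors corrected and normalized them. The number of arrays limits the precision.

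Intensities were background-corrected by limma 3.58.1 under R 4.3.3 (nec function, a normal-exponential fit, with detection p taken as 1 minus the deposited fraction, offset 16), quantile normalized and put on a log2 scale. Folds of dim genes are understated by the offset. A probe was kept where any line had a detection p under 0.01 on each of its 2 arrays, and the brightest kept probe stood for a gene. Symbols came from the platform annotation: 29976 probes had 1 symbol, 10 had several and 16646 were unnamed here. Gene order came from RefSeq (GRCm38.p6). The fit (lmFit, eBayes) used all 12 arrays with 1 group per line, and its contrast was constitutively active line 2 minus wild-type line 3, two-sided, with Benjamini-Hochberg adjustment at 0.05. Where a line detected a gene on neither array, the fold is a lower bound: the bright mean against the higher of the dim signal and the lowest detected signal. The other 4 lines were compared on line means. The procedure was tested on simulated data.

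Named were Stat3, Tns4, the 15 largest differences each way, up to 4 called members per gene list, up to 10 large genes each way that separated the genotypes, and the 10 in which either line lay farthest from the other 5. Other genes (members of the chromosome 4 stretch, chromosome 17 neighbours, histone genes, further list members) were named after their values were seen. The pair and the gene lists were chosen with earlier results of these data known. Array numbers were not used to pair the samples. Deviations of equal-numbered arrays in the 2 lines correlated at -0.00118, and over all 15 pairs of lines at -0.228 to 0.295. Whether equal-numbered arrays shared a batch cannot be told from these values. Alternatives were the deposited log2 values, median scaling, other background settings, filters and probe rules, fewer arrays, and a minimum-effect test (treat).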

Additional observations from a re-analysis of the deposited data

Results flagged for a closer look

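For 5 named genes the pair and the other lines went opposite ways: every array of constitutively active lines 1 and 3 lay on one side of every array of wild-type lines 1 and 2, and the pair lay the other way round. The difference between the 2 contrasts was not tested for any of them.

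Gng2, a G protein gamma subunit gene, averaged 5.82 in constitutively active line 2 and 7.68 in wild-type line 3, a difference of -1.86. It averaged 7.66 and 7.80 in constitutively active lines 1 and 3, against 7.14 and 7.02 in wild-type lines 1 and 2, a difference of 0.65. Rhox5, an X-linked homeobox gene, averaged 6.42 in constitutively active line 2 and 8.20 in wild-type line 3, a difference of -1.78, against 1.62 in the other lines. In both genes constitutively active line 2 stood below each of the other 5 lines.

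Igfbp4 differed by -1.23 in the pair and by 4.28 in the other lines, where it averaged 10.46 and 11.82 in constitutively active lines 1 and 3, against 4.93 and 8.80 in wild-type lines 1 and 2. Bik, a pro-apoptotic BCL2 family gene, differed by 0.92 in the pair and by -0.72 in the other lines. Cp, the copper-binding ferroxidase ceruloplasmin, differed by 0.69 in the pair and by -0.51 in the other lines, and both it and Bik were highest in constitutively active line 2.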

How the results depend on the processing

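Counts of large differences varied with the processing. They were 30 higher and 22 lower with the deposited log2 values, 48 and 33 without background correction, and 150 and 97 over every kept probe, unnamed ones included. With the test against a minimum of 0.5 log2, 86 genes were called higher and 55 lower. Under the median scaling 120 genes were called lower, 213 were higher by at least 1 and 14 list members were lower, and its median of all genes was 0.27. Leaving out 1 array of the pair in turn gave 368 to 774 genes called higher and 256 to 596 lower, 82 to 143 and 58 to 103 large differences, and a median for the chromosome 4 stretch of 0.73 to 0.76. That median was 0.50 with the deposited values, 1.00 under the median scaling, 0.60 without background correction, 0.63 with an offset of 50 and 0.72 over the mean of a gene's probes. The share of called genes with the pair's sign in the other lines was 62.7% without constitutively active line 1 and 59.7% without wild-type line 1, and that of large genes was 52.5% without wild-type line 1. The causes of these shifts were not tested.

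With the array number as a replicate block, 727 genes were called higher and 642 lower, 95 and 62 of them large. All 158 large genes kept call and direction with the deposited values, the median scaling, no background correction, an offset of 50 and the probe mean. With no filter on dim probes 154 did and 1 reversed. Of 1947 values of named genes under the alternatives, 1670 kept call and direction, 277 kept the direction only and 0 reversed. The replicate block, the fit on the arrays of the pair alone and the minimum-effect test leave each difference unchanged, so no sign could reverse there. Most named genes were also picked as called in these same data, many for their large differences. With 2 arrays per line and 1 line per genotype, the tests cover the spread between arrays and not that between lines.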
